A study of Glycine max with 4 samples.

Results

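FAD2 genes encode oleate desaturases. The 5 FAD2 gene models described here were chosen by identifier from the 66210 gene models counted in each library. They comprise 2 seed-type genes, FAD2-1A (Glyma10g42470, on chromosome 10) and FAD2-1B (Glyma20g24530, on chromosome 20). The other 3 are FAD2-2 copies, called constitutive in the rule that chose them: Glyma03g30070 on chromosome 3, and Glyma19g32930 and Glyma19g32940, which follow each other on chromosome 19. Soybean identifiers of this kind name the chromosome and count along it, and positions here are taken from them. A RefSeq gene table of assembly Glycine_max_v4.0 lists FAD2-1A on chromosome 10, FAD2-1B on chromosome 20, 1 FAD2-2 gene on chromosome 3 and 2 on chromosome 19. It also holds FAD2 symbols on chromosomes 6 and 9. None of its entries carries an identifier of the files, so the chromosome 19 copies are given by identifier, and the genes on chromosomes 6 and 9 were not analysed here.

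FAD2 is an enzyme of the endoplasmic reticulum. It adds a double bond to oleate esterified to phosphatidylcholine, which turns it into linoleate. Linoleate is the main fatty acid of ordinary soybean oil and the substrate from which linolenate is made, and lines that lack FAD2-1 activity have oil rich in oleate. In plants, FAD2-type enzymes also set the unsaturation of membrane lipids outside the seed.

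The libraries were made from polyadenylated RNA of Williams 82, an inbred soybean cultivar, with 1 library for each of 4 stages. Stage B1 is the green cotyledon of the mid-maturation embryo (150 to 250 mg a pair), and stage AA1 is the yellow cotyledon of the late-maturation embryo (200 to 350 mg a pair), both taken free of seed coat and axis. The others are the whole dry seed (100 to 250 mg), in which seed coat and axis make a small contribution, and the cotyledon of the seedling 6 days after imbibition. All plants had the same cultivar background, with no treatment or transgene named, and the number of plants behind each library is not given in the sources used here. With 1 library a stage, stage and library preparation cannot be told apart and nothing measures the spread between plants, so no p-value is given and all intervals (95%) cover counting error only. In bulk RNA, fewer cells of a type and less RNA per cell cannot be told apart. The labelled tissues could not be checked against marker genes, since the files pair no identifier with a gene product.

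Library totals were 16120894 counts in B1, 38011608 in AA1, 21512278 in the dry seed and 28190429 in the seedling. Levels are given as scaled CPM, the count in each 1000000 after the library size is corrected with TMM (trimmed mean of M-values). At this scale 1 count is worth 0.107 scaled CPM in B1, 0.0250 in AA1, 0.0429 in the dry seed and 0.0235 in the seedling. Gene length was not corrected for, so a level is compared between libraries for the same gene model, not between gene models as numbers of molecules. The treatment of reads that match several places is not given in the sources used here. FAD2 copies are related in sequence, and the counts of single copies are uncertain to that extent.

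FAD2 counts below are those of the 5 gene models, without the FAD2 genes on chromosomes 6 and 9. Nearly all of them came from the seed-type genes in the mid-maturation cotyledon and from FAD2-2 copies in the seedling cotyledon. FAD2-1A and FAD2-1B together made up 97.1% of the FAD2 counts in B1 (exact Clopper-Pearson interval 96.8% to 97.4%, 15229 of 15684 counts). Their share was 53.5% in AA1 (52.3% to 54.7%), 35.9% in the dry seed (33.9% to 38.0%) and 0.0723% in the seedling (0.0361% to 0.129%, 11 of 15224 counts). These shares do not depend on how libraries are scaled against each other. The ratio of FAD2-2 to FAD2-1 counts was 29.1-fold higher in AA1 than in B1 (26.2 to 32.4), a further 2.05-fold higher in the dry seed than in AA1 (1.85 to 2.27) and 774-fold higher in the seedling than in the dry seed (429 to 1562). Each interval lies above 1.

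**Figure D1:**
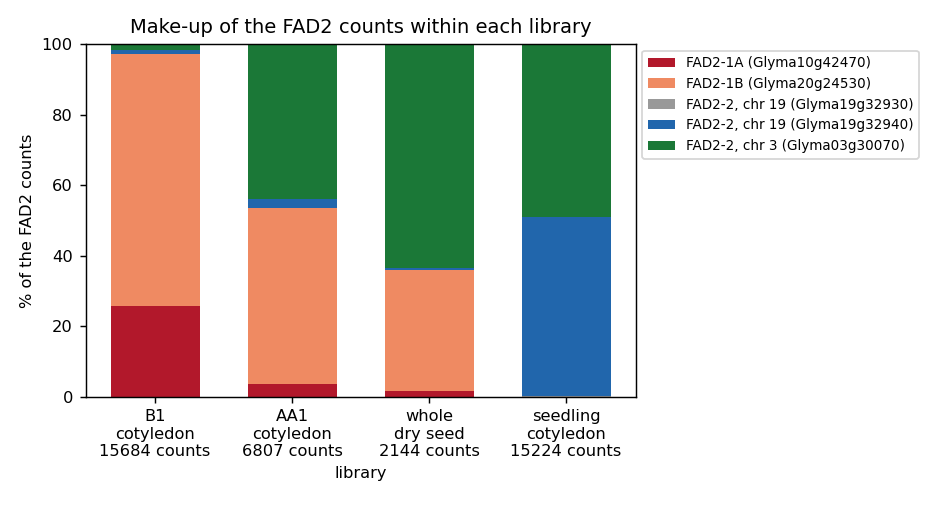
Share of the FAD2 counts (y axis, percent, not corrected for gene length) held by each of the 5 gene models in the 4 libraries (x axis, with the number of FAD2 counts). FAD2-1A and FAD2-1B hold 97.1% in B1 and 0.0723% in the seedling, where the chromosome 3 copy and Glyma19g32940 hold 49.0% and 50.9%; Glyma19g32930 is too low to be seen.

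All 5 gene models summed stood at 1675 scaled CPM in B1, 169.9 in AA1, 92.0 in the dry seed and 358 in the seedling. These sums equal 0.0973%, 0.0179%, 0.00997% and 0.0540% of all counts, in the same order. The summed level was thus highest in B1 and lowest in the dry seed, and B1 was 4.68-fold above the seedling (4.58 to 4.78). With library totals in place of TMM, that last distance was 1.80-fold, and the other scalings tried put it at 5.13-fold to 6.26-fold. The order of the 4 libraries was the same under the 5 scalings tried, as it was for each of the 4 gene models described next.

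FAD2-1B, the chromosome 20 member of the seed-type pair, had 11190 counts in B1, 3390 in AA1, 736 in the dry seed and 7 in the seedling. Its level was 1195 scaled CPM in B1 (interval 1173 to 1218), 84.6 in AA1 (81.8 to 87.5), 31.6 in the dry seed (29.4 to 34.0) and 0.165 in the seedling (0.0662 to 0.339). The order was B1, AA1, dry seed, seedling, and no interval overlapped that of the next library. By count, without correction for length, it was gene model number 82 in B1 and number 36534 in the seedling. It was 14.1-fold lower in AA1 than in B1 (13.6 to 14.7), 2.68-fold lower in the dry seed than in AA1 (2.47 to 2.90) and 192-fold lower in the seedling than in the dry seed (92.7 to 479).

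FAD2-1A, on chromosome 10, is the copy whose enzyme is known to be the less stable of the pair at high growth temperature. It had 4039 counts in B1, 251 in AA1, 34 in the dry seed and 4 in the seedling. Its level was 431 scaled CPM in B1 (418 to 445), 6.26 in AA1 (5.51 to 7.09), 1.46 in the dry seed (1.01 to 2.04) and 0.0941 in the seedling (0.0256 to 0.241). The libraries ranked as for FAD2-1B, again with no overlap between neighbouring intervals. It was 68.9-fold lower in AA1 than in B1 (60.6 to 78.5) and 4.29-fold lower in the dry seed than in AA1 (2.99 to 6.34). From the dry seed to the seedling it was a further 15.5-fold lower (5.53 to 60.2), a value that rests on 4 counts. The distance between AA1 and dry seed lies close to the 4-fold rule used here: its interval includes 4, and DESeq2 size factors gave 3.99-fold.

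**Figure D2:**
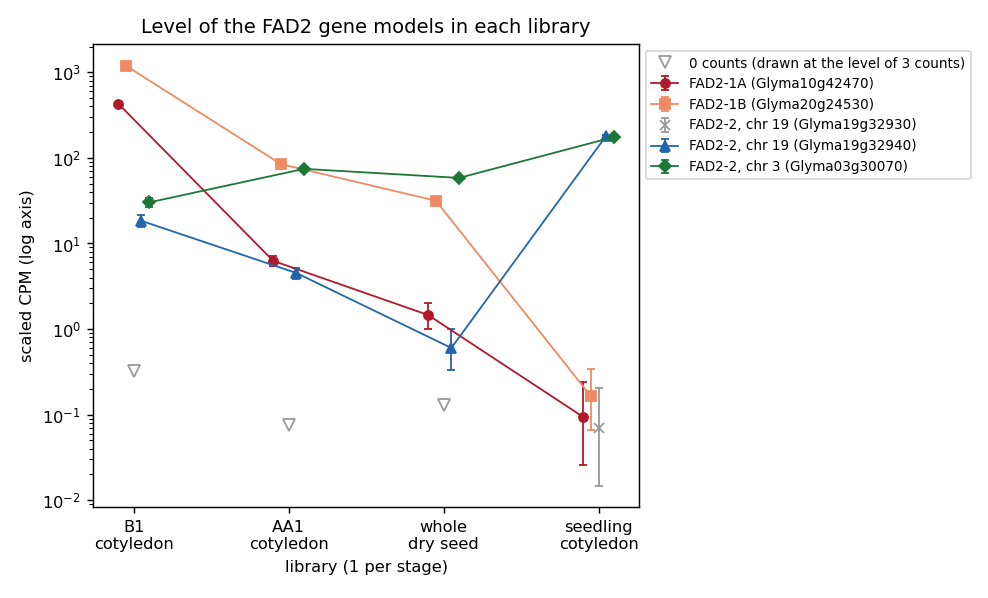
Level of each FAD2 gene model (y axis, scaled CPM on a log axis) in the 4 libraries (x axis); symbols are single libraries, bars are exact 95% Poisson intervals for counting error, and open triangles mark 0 counts, drawn at the level that 3 counts would have. FAD2-1A and FAD2-1B go from 431 and 1195 in B1 to 0.0941 and 0.165 in the seedling, while the chromosome 3 copy and Glyma19g32940 are highest in the seedling, at 175.6 and 182.

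The seed-type copies did not keep a fixed proportion. FAD2-1A held 26.5% of the FAD2-1 counts in B1 (25.8% to 27.2%), 6.89% in AA1 (6.09% to 7.77%) and 4.42% in the dry seed (3.08% to 6.12%). The ratio of FAD2-1B to FAD2-1A counts was 2.77 in B1, 13.5 in AA1 and 21.6 in the dry seed. It was 4.87-fold higher in AA1 than in B1 (4.26 to 5.59) and 1.60-fold higher in the dry seed than in AA1 (1.11 to 2.39). Between these libraries the level of FAD2-1A was thus lower by a larger factor than that of FAD2-1B, whatever the scaling, and gene length cancels in this comparison. It still depends on how reads that match both copies were counted, which is not given. In the seedling the ratio was 1.75 with an interval of 0.445 to 8.15, from 7 and 4 counts. It was 12.3-fold below the dry-seed ratio (2.51 to 51.0), and it could not be told from the B1 ratio at this depth (1.58-fold lower, with an interval from 6.23-fold lower to a seedling ratio above that of B1).

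The chromosome 3 FAD2-2 copy, Glyma03g30070, was counted at more than 10 scaled CPM in every library, the only one of the 5 to do so. It had 283 counts in B1, 2985 in AA1, 1360 in the dry seed and 7467 in the seedling. Its level was 30.2 scaled CPM in B1 (26.8 to 34.0), 74.5 in AA1 (71.9 to 77.2), 58.4 in the dry seed (55.3 to 61.6) and 175.6 in the seedling (171.6 to 179.6). The seedling was highest and B1 lowest, with AA1 and dry seed between them and 1.28-fold apart (1.20 to 1.36). The seedling level was 3.01-fold that of dry seed (2.84 to 3.19) and 5.81-fold that of B1 (5.16 to 6.57). AA1 was 2.46-fold above B1 (2.18 to 2.79), and with library totals that ratio was 4.47-fold, past the 4-fold rule.

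Glyma19g32940, an FAD2-2 copy on chromosome 19, had 172 counts in B1, 181 in AA1, 14 in the dry seed and 7743 in the seedling. Its level was 18.4 scaled CPM in B1 (15.7 to 21.3), 4.52 in AA1 (3.88 to 5.23), 0.601 in the dry seed (0.329 to 1.01) and 182 in the seedling (178 to 186). The order was seedling, B1, AA1, dry seed, with no overlap between neighbouring intervals. The word constitutive therefore covers a level that was 303-fold higher in the seedling than in the dry seed (180 to 555). Against AA1 and B1 the seedling was 40.3-fold higher (34.8 to 47.0) and 9.91-fold higher (8.52 to 11.6). Dry seed was 7.52-fold below AA1 (4.37 to 14.0). AA1 was 4.07-fold below B1 (3.28 to 5.04), a distance that library totals put at 2.24-fold, under the 4-fold rule, and that also misses the rule with a pseudocount of 1 scaled CPM.

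The remaining FAD2-2 copy, Glyma19g32930, was at the limit of detection. It had 0 counts in B1, AA1 and dry seed, where 3 counts would equal 0.320, 0.0749 and 0.129 scaled CPM, and 3 counts in the seedling (0.0706 scaled CPM, interval 0.0145 to 0.206). It did not reach 1 scaled CPM in any library and entered no comparison. No ratio is given for it, because all libraries are at or under the floor of 3 counts. These counts are too few to show whether its level differs between libraries.

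The FAD2-2 copies on chromosomes 3 and 19 were counted about equally in the seedling and very unequally in the late seed. The chromosome 3 copy held 62.2% of the FAD2-2 counts in B1 (57.6% to 66.7%), 94.3% in AA1 (93.4% to 95.1%), 99.0% in the dry seed (98.3% to 99.4%) and 49.1% in the seedling (48.3% to 49.9%). The ratio of its counts to those of Glyma19g32940 was 10.01-fold higher in AA1 than in B1 (7.81 to 12.8) and 5.89-fold higher in the dry seed than in AA1 (3.40 to 11.03). It was 101-fold lower in the seedling than in the dry seed (59.7 to 185) and 1.71-fold lower in the seedling than in B1 (1.40 to 2.08). Within both the seed-type and the FAD2-2 genes, the same copy thus held a larger share of the counts in AA1 than in B1 and in the dry seed than in AA1. These shares also depend on the unstated treatment of reads that match several copies.

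**Figure D3:**
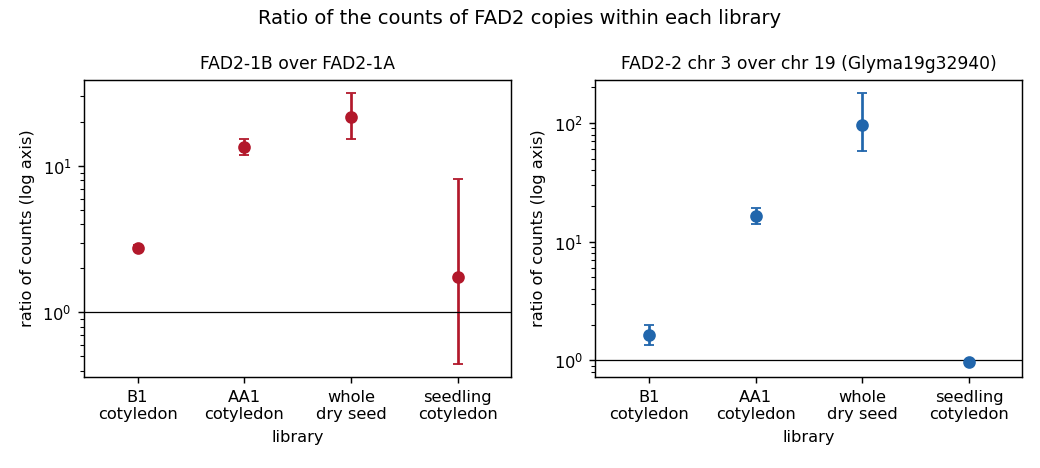
Ratio of the counts of 2 FAD2 copies within each library (y axes, log scale, not corrected for length) with exact 95% binomial intervals, for FAD2-1B over FAD2-1A (left) and the chromosome 3 FAD2-2 copy over Glyma19g32940 (right). Both ratios are highest in the dry seed, at 21.6 and 97.1, and the seedling ratios are 1.75, with a wide interval, and 0.964.

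The gene models were next set against all others in each pair of libraries. A gene model entered a pair if it had at least 1 scaled CPM in either library, and being at least 4-fold apart is a rule of size, with counts under 3 set to 3. In each of the 6 pairs 4 of the 5 FAD2 gene models entered. In AA1 against B1, 3 of these 4 were at least 4-fold lower (FAD2-1A, FAD2-1B and Glyma19g32940), where 16.6% of the 29154 gene models that entered were, and 0 were higher, against 13.2%. The median log2 ratio was -2.92 over the 4 and 0.19 over all. Of the gene models in this pair, 415 had a ratio as low as that of FAD2-1A or lower, and 2099 as low as that of FAD2-1B.

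In the dry seed against AA1, 2 of the 4 were at least 4-fold lower (FAD2-1A and Glyma19g32940), against 9.75% of 26397, and 0 were higher, against 5.96%. Median log2 ratios were -1.76 over the 4 and -0.03 over all. The call of Glyma19g32940 ended with a filter of 5 scaled CPM, which its levels did not reach, that of FAD2-1A with DESeq2 size factors and under the interval rule, and both calls with a pseudocount of 1 scaled CPM. FAD2-1B and the chromosome 3 copy were 2.68-fold and 1.28-fold lower, inside the rule. The dry seed was the only library with seed coat and axis in it, and the part of these tissues in the result was not tested.

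In the seedling against dry seed, 2 of the 4 were at least 4-fold lower (both FAD2-1 genes), against 15.7% of 31169, and 1 was higher (Glyma19g32940), against 31.5%. The 3.01-fold distance of the chromosome 3 copy stayed inside the rule and became 4.19-fold with library totals. A ratio as high as that of Glyma19g32940 was reached by 341 gene models, and one as low as that of FAD2-1B by 127. Median log2 ratios were -1.18 over the 4 and 0.32 over all, a median over the 4 that joins opposite directions.

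The 3 remaining pairs join stages that do not follow each other, and they use the same libraries again. In the dry seed against B1, 3 of 4 were at least 4-fold lower, against 24.1% of 29063, and 0 were higher, against 20.1%. FAD2-1A was 296-fold lower (211 to 427), FAD2-1B 37.8-fold lower (35.1 to 40.8) and Glyma19g32940 30.6-fold lower (17.7 to 57.1), while the chromosome 3 copy was 1.93-fold higher (1.70 to 2.20). In the seedling against B1, 2 were lower, against 11.8% of 31753, and 2 were higher, against 22.5%, so each FAD2-1 gene was lower and each FAD2-2 copy that entered was higher. FAD2-1B was 7260-fold lower (3523 to 18062) and FAD2-1A 4586-fold lower (1790 to 16839). In this pair 23 gene models had a ratio as low as that of FAD2-1B, and 36 as low as that of FAD2-1A. With counts under 3 set to 3, only gene models abundant in B1 could reach such ratios. By count in B1, FAD2-1B was number 82 and FAD2-1A number 198. In the seedling against AA1, 2 were lower, against 10.7% of 31121, and 1 was higher (Glyma19g32940), against 24.8%. Here the chromosome 3 copy was 2.36-fold higher (2.26 to 2.46), FAD2-1B 514-fold lower (249 to 1279) and FAD2-1A 66.6-fold lower (25.7 to 246).

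Distances from B1 depend on the scaling. With library totals, FAD2-1A was 37.9-fold lower in AA1, 159-fold lower in the dry seed and 1766-fold lower in the seedling than in B1, and FAD2-1B was 7.78-fold, 20.3-fold and 2795-fold lower. With the same scaling the dry seed was 16.4-fold below B1 for Glyma19g32940 and 3.601-fold above it for the chromosome 3 copy, and the seedling was 15.1-fold above B1 for the chromosome 3 copy and 25.7-fold above it for Glyma19g32940. With the other scalings tried, each of these falls was larger than with TMM and each of these rises smaller. FAD2-1A was then up to 79.4-fold lower in AA1 and 393-fold lower in the dry seed, and FAD2-1B up to 9721-fold lower in the seedling. The seedling was as little as 4.34-fold above B1 for the chromosome 3 copy and 7.40-fold for Glyma19g32940.

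**Figure D4:**
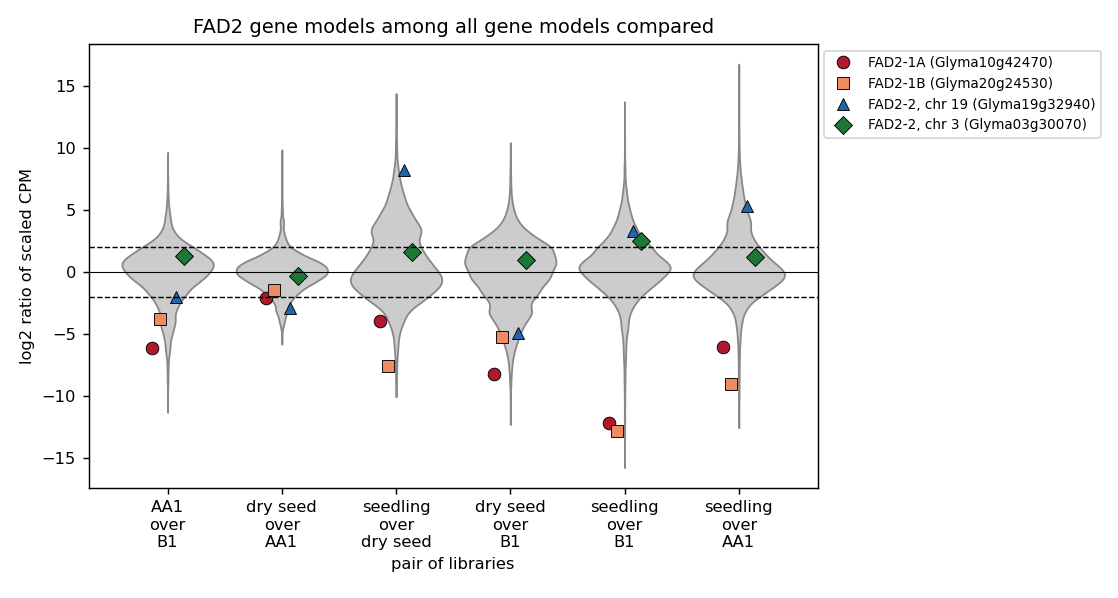
Log2 ratio of scaled CPM (y axis, counts under 3 set to 3) in the 6 pairs of libraries (x axis), with grey outlines for the spread of all gene models that entered a pair, coloured symbols for the 4 FAD2 gene models that entered, and dashed lines at 4-fold. FAD2-1A and FAD2-1B lie below 0 in every pair and reach -12.16 and -12.83 in the seedling against B1; Glyma19g32940 reaches 8.24 in the seedling against dry seed.

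Counting over all pairs, both FAD2-1 genes were among the 1623 gene models, 4.87% of the 33358 with at least 1 scaled CPM somewhere, that stood at least 4-fold higher in B1 than in every other library. They were also among the 965 (2.89%) that stood at least 4-fold lower in the seedling than elsewhere. FAD2-1A was 1 of 29 gene models (0.0869%) lower by at least 4-fold at each of the 3 consecutive steps, a grouping that was set up after its levels were seen and that rests on the 4.29-fold middle step. Glyma19g32940 was among the 4181 (12.5%) highest in the seedling and among the 1057 (3.17%) lowest in the dry seed by the same distance.

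The gene models with the most similar stage profile were sought among 18904 others that reached 10 scaled CPM in any library. Likeness was the largest difference, over the 4 libraries, of log2(scaled CPM + 1) after its mean was subtracted. For FAD2-1B, 8 gene models stayed within 1 on this log2 scale in every library. The closest were Glyma20g28460 at 0.41, whose scaled CPM was 1090 in B1, 111 in AA1, 23.5 in the dry seed and 0.235 in the seedling, and Glyma20g28640 at 0.48, with 1208, 84.5, 21.2 and 0.400 in the same order. FAD2-1A was not among the 8: with the means subtracted, it differed from FAD2-1B by up to 2.12, in the seedling. Both levels were near 0 there, at 0.0941 and 0.165 scaled CPM, so that difference comes from the means and not from the seedling levels. For Glyma19g32940, 104 gene models stayed within 1, and the closest was Glyma18g47710 at 0.24. The flatter profile of the chromosome 3 copy was shared within 1 by 2153 gene models, the closest being Glyma13g19420 at 0.07. These are descriptions over 4 libraries, and a flat profile has many neighbours by this measure.

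The chromosomal surroundings were described by the 5 gene models on either side in identifier order. Their levels are not corrected for length and are given as the setting in which each FAD2 level was read. In B1, where FAD2-1A stood at 431 scaled CPM, its 10 neighbours ranged from 0.748 to 330 with a median of 8.06. In the seedling, where it stood at 0.0941, they ranged from 0.259 to 33.2 with a median of 7.53. The 10 neighbours of FAD2-1B ranged from 0 to 92.7 in B1, with a median of 18.3, and from 0 to 26.3 in the seedling, with a median of 10.2. In AA1 against B1, 2 of the 8 neighbours that entered were at least 4-fold lower around FAD2-1A and 2 of 8 around FAD2-1B. In either place 0 were higher. Over all gene models that entered, 16.6% were lower and 13.2% higher. From the dry seed to seedling, around FAD2-1A 3 of 9 were higher and 2 lower, and around FAD2-1B 1 of 8 was higher and 1 lower. Over all gene models in that pair, 31.5% were higher and 15.7% lower.

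Around the FAD2-2 copies, of the 9 neighbours of Glyma19g32940 that are not FAD2 gene models, the median was 1.22 scaled CPM in the seedling and the highest 67.5, against 182 for Glyma19g32940 itself. The gene model just before the chromosome 19 pair stood at 476 scaled CPM in B1, 3528 in AA1, 5190 in the dry seed and 67.5 in the seedling. On chromosome 3, the gene model 3 places before the FAD2-2 copy stood at 1320, 7304, 10400 and 109, in the same order. Each of these, the most abundant neighbour in its place, was thus highest in the dry seed and lowest in the seedling, whereas both FAD2-2 copies near them were highest in the seedling. Not every neighbour had this order. The gene model 3 places after the chromosome 3 copy was lowest in the dry seed, at 14.4 scaled CPM, and highest in B1, at 63.4. In the seedling against dry seed, 3 of 6 neighbours of Glyma19g32940 were at least 4-fold lower and 1 higher. Around the chromosome 3 copy, 1 of 6 was lower and 1 higher. Over all gene models in that pair, 15.7% were lower and 31.5% higher.

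**Figure D5:**
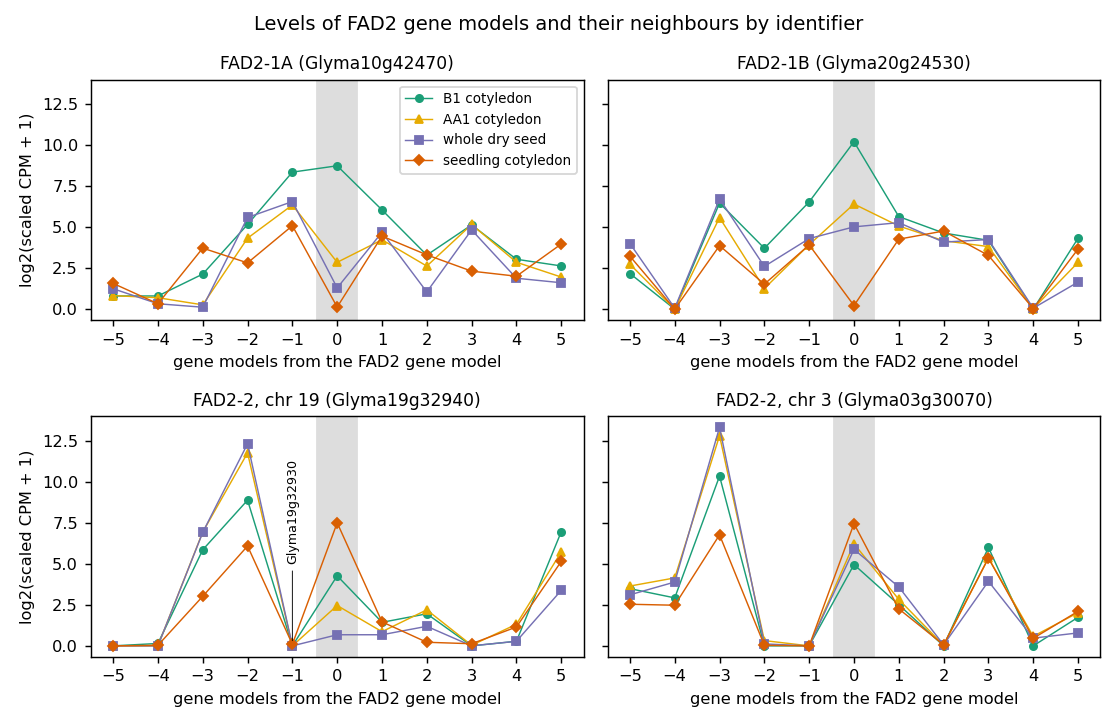
Level (y axis, log2(scaled CPM + 1)) of 4 FAD2 gene models, at position 0 on a grey band, and of the 5 gene models on either side in identifier order (x axis, places from the FAD2 gene model), with 1 line for each library. The FAD2-1 genes lie near 0 in the seedling, where most of their neighbours do not; Glyma19g32930, 1 place before Glyma19g32940, lies at or near 0 in all 4 libraries.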

How the data were processed

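Per the labels' protocols, twice-selected poly-A RNA (100 ng) was fragmented, copied with random primers, amplified in 15 cycles of PCR and sequenced as single 76-bp reads. No step marks strand and no molecular identifiers are named. Per the file headers, the deposited values are the number of mapped reads per gene model, as raw counts without normalization. The submitters' processing notes name Bowtie. Not given in the sources used here are the genome build, the annotation, the counting program and the treatment of reads with several matches. 0 rows lacked an identifier.

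TMM factors were computed over the 4 libraries with edgeR 4.0.16 in R 4.3.3: B1 had 0.581, AA1 1.05, the dry seed 1.08 and the seedling 1.51. Ratios of scaled CPM have exact binomial intervals, levels exact Poisson intervals, shares exact Clopper-Pearson intervals and ratios of ratios exact conditional intervals (scipy 1.17.1). They cover counting error only, and PCR copies are not independent molecules. With 1 library a stage no test was run. The 4-fold rule was checked on counts simulated with counting error only, which cannot show how it behaves under spread between plants or preparations. Alternatives were 4 other scalings (DESeq2 1.42.0 size factors among them), filters, a pseudocount, 2-fold, an interval rule and thinning to 16120894 counts. Sums over copies were added after the data were seen.

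The members and lists were chosen with earlier results of these data known. All 5 members are named, and other gene models only as the closest profiles. 0 of the 66210 identifiers matched the 59048 entries of the RefSeq table, so lists of other lipid genes and of tissue markers were not run, and no sequence is printed.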

Additional observations from a re-analysis of the deposited data

How the results depend on the processing

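Of 132 recomputed counts of members and shares, 121 stayed within 1.5 times the reported count or within the counting interval of the share, and 11 moved. Counts of 0 members that stayed at 0 are included among the 121. A rise from 2 members to 3 counts as staying. This was so at 2-fold in the dry seed against AA1, where FAD2-1B joined the lower members and 23.7% of all gene models were lower. A fall from 3 members to 2 counts as staying too. In AA1 against B1, Glyma19g32940 lost its lower call in this way with library totals, the pseudocount and the interval rule. Shares were recomputed by thinning only, and those of B1, the smallest library, could not change. With library totals, 1 member was at least 4-fold higher in AA1 against B1 and 2 in the seedling against dry seed. The gain was the chromosome 3 copy in both pairs. Of all gene models that entered, 29.4% and 37.1% were then higher in these pairs. At 2-fold, 1 was higher in AA1 than in B1, 2 in the seedling than in the dry seed and 2 in the seedling than in AA1. The shares over all gene models were 31.1%, 41.4% and 36.8%, in the same order. In the dry seed against AA1, 1 member was lower with DESeq2 size factors (Glyma19g32940), 1 with a filter of 5 scaled CPM (FAD2-1A), 1 by the interval rule (Glyma19g32940) and 0 with a pseudocount of 1 scaled CPM. Over all gene models 8.83%, 6.02%, 4.7% and 2.7% were lower under these settings, in the same order. In the seedling against dry seed, 1 was lower with that filter and 1 with that pseudocount, against 17.9% and 11% of all gene models. Both settings remove FAD2-1A, whose levels in this pair are under 5 scaled CPM. Of 210 recomputed ratios of members and sums, 125 stayed within the counting interval of the reported ratio and 85 moved outside it. The direction changed in 1: summed FAD2-2 in the dry seed against B1 was 1.21-fold higher, and 1.10-fold lower with totals without the 100 most abundant gene models. Library totals moved the median log2 ratio of all gene models in AA1 against B1 from 0.19 to 1.15. No paired analysis was possible because each stage has 1 library and no test was run, and for the same reason no replicate could be left out. Depth limits FAD2-1 in the seedling (11 counts) and Glyma19g32930 (3 counts in all).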
